A study of Mus musculus with 6 samples.

Results

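Macrophage marker genes were examined in olfactory epithelium of Harlequin mice and their littermate controls, as the probe sets whose platform symbol is exactly Cd68, Adgre1, Csf1r, Aif1, Lyz2, Cd14, Mrc1, Cd163, Msr1 or Tyrobp. These 10 genes were represented by 15 of the 45037 probe sets that are not controls, and they were 10 of the 18193 genes named on the array. Mrc1 and Cd163 were kept apart as resident-type members, and the other 8 were treated as activation-type members, although several of those 8 are general macrophage genes. The Harlequin group held 3 hemizygous males (Hq/Y), labelled as B6CBACAw-J/A-Pdcd8-Hq/J, which carry a mutation of the X-linked gene Aifm1 (formerly Pdcd8) in all their cells. The control group held 3 males, +/Y, called littermates in the titles and given strain B6CBACa, so that the strain label and the genotype cannot be told apart. All 6 mice were 6 months old, had been bought at 13 weeks of age, and gave 1 Affymetrix array each from microdissected tissue.

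Macrophages are phagocytes of the innate immune system that live in nearly every tissue. In the olfactory mucosa they lie in the lamina propria and within the epithelium, where they clear the debris of sensory neurons, which die and are replaced throughout life. They depend on signals through the CSF1 receptor, and they sense bacterial products, take up modified lipids and dead cells, and digest them in lysosomes. Resident-type macrophages are commonly recognised by the mannose receptor and the haemoglobin scavenger receptor, whereas endotoxin sensing, scavenging and lysosomal genes tend to increase when macrophages are activated or newly recruited. A name can mislead here: Aif1 encodes allograft inflammatory factor 1, known as IBA1, and is unrelated to Aifm1, the apoptosis-inducing factor mutated in Harlequin.

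The arrays matched their genotype labels and held the labelled tissue. Aifm1 gave 335.4, 221.1 and 211.2 in Harlequin mice, against 1239.9, 1255.6 and 1128.2 in controls (log2 difference -2.20, SE 0.18, limma adjusted p = 0.0158). Omp, the marker of mature olfactory neurons, averaged 17460 ± 1475 in Harlequin mice against 16890 ± 479 in controls (SD, n = 3 each), and Cyp2g1, of supporting cells and glands, averaged 17650 ± 213 in Harlequin mice against 17570 ± 857 in controls. Values are linear probe set signals scaled to a trimmed mean of 500 on every array, and median signals lay between 109.6 and 113.4 on the Harlequin arrays and between 107.9 and 119.7 on the control arrays. A gene was tested when the mean of its log2(signal + 16) corresponded to a signal above 61.1, and log2 differences are Harlequin minus control on that scale, which understates changes of dim genes. With 3 mice a genotype, precision is set by how few arrays there are. The tissue was analysed in bulk, so fewer macrophages and less RNA per macrophage cannot be told apart.

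No macrophage marker that could be tested passed the test between Harlequin and control epithelium. Of the 10 members 8 passed the signal filter, and 0 of those 8 had a limma adjusted p under 0.05, where 0.0303% of the 13219 genes tested did. At an unadjusted p under 0.05 there was 1 member, Tyrobp, where 4.58% of all genes tested lay under it. Members with no overlap between the genotypes numbered 0 of 8, where 10.4% of all genes tested had none, and 0 of the 15 member probe sets, where 9.96% of all probe sets had none. Of the tested members 6 were higher and 2 lower on average in Harlequin, where 50% of all genes tested were higher, with a median log2 difference of 0.08, and the median over all genes tested was 5.17e-05. When every probe set was fitted on its own, 0 of the 10 member probe sets that passed the filter had an adjusted p under 0.05, where 0.0259% of 27022 probe sets did, and 1 had an unadjusted p under 0.05, where 4.7% did. The plot of member signals by array shows the same overlap gene by gene.

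**Figure D1:**
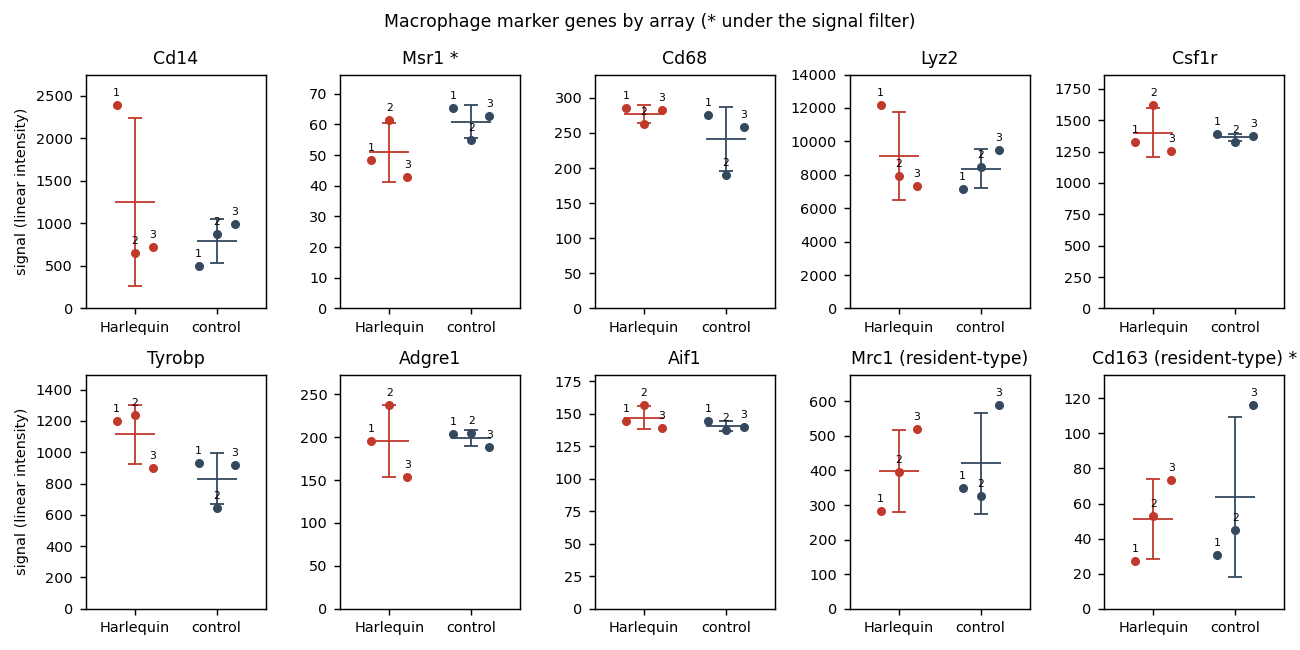
Signal of each macrophage marker on each array, at the probe set of highest mean per gene, on a linear axis from 0 (Harlequin on the left, control on the right, numbers give the replicate, the dash and bar give mean and SD, n = 3 each). The groups overlap for all 10 genes; Cd14 reaches 2392.0 in Harlequin replicate 1, and Msr1 and Cd163 lay under the signal filter.

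Cd14, the surface receptor that hands bacterial endotoxin to the TLR4 complex, was the tested member with the widest spread between mice of 1 genotype. Its probe set gave 2392.0, 646.4 and 719.7 in Harlequin mice, against 500.0, 878.9 and 998.5 in controls. Harlequin replicate 1 stood above all other arrays, while the other Harlequin mice lay within the control range. The fitted log2 difference was 0.44 (SE 0.47, 95% interval -0.64 to 1.52, adjusted p = 0.982), and without Harlequin replicate 1 it was -0.15. Its SD within the genotypes, 0.82 on the log2 scale, was above that of 98.8% of the genes tested. Without control replicate 1, the lowest of the 6, the difference was 0.15.

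Msr1 encodes the class A scavenger receptor, which takes up modified lipoproteins and bacteria, and none of its 4 probe sets passed the filter. The probe set with the highest mean gave 48.5, 61.5 and 42.7 in Harlequin mice, against 65.2, 54.9 and 62.7 in controls. These signals overlapped and lay around the filter. The log2 difference was -0.21 (95% interval -0.77 to 0.35 in the fit without the filter). The other 3 probe sets differed by -0.30, 0.38 and 0.13, with signals between 1.8 and 56.2, so that they did not share a direction.

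Among the lysosomal members, Cd68, a glycoprotein of late endosomes and lysosomes, gave 285.6, 262.3 and 283.1 in Harlequin mice, against 275.6, 189.8 and 258.5 in controls. The Harlequin values lay close together, at 277.0 ± 12.8, and the controls were spread more widely, at 241.3 ± 45.4 (SD, n = 3 each), because of control replicate 2. The log2 difference was 0.20 (SE 0.17, 95% interval -0.19 to 0.59, adjusted p = 0.982). Without control replicate 2 it was 0.05.

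Lyz2 encodes lysozyme M, a bactericidal enzyme of macrophages, monocytes and neutrophils. Its probe set gave 12175.1, 7939.8 and 7334.3 in Harlequin mice, against 7123.5, 8484.9 and 9463.6 in controls. As for Cd14, Harlequin replicate 1 was the highest array and control replicate 1 the lowest. The log2 difference was 0.10 (SE 0.19, 95% interval -0.33 to 0.53, adjusted p = 0.986), which turned to -0.12 when Harlequin replicate 1 was left out and to -0.01 without control replicate 1. Lyz1, the neighbouring lysozyme gene, known from Paneth cells, is a near-identical copy. Its probe set of highest mean, of a type (_x_at) that can bind related transcripts, gave 15720.5, 12835.3 and 11693.5 in Harlequin mice, against 11140.9, 12291.4 and 12856.7 in controls. The arrays thus fell in the same order as for Lyz2 except that Harlequin replicate 2 stood higher, and its log2 difference was 0.14. Another Lyz1 probe set of the _x_at type gave 15024.2, 10687.1 and 10570.0 in Harlequin mice, against 9202.6, 11561.8 and 11682.6 in controls. There the arrays fell in the same order as for Lyz2, and the log2 difference was 0.15. A further Lyz1 probe set, without that suffix, gave 15.4 to 43.9 in Harlequin and 23.6 to 41.3 in controls. How far the signals of these 2 genes share transcripts was not tested.

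Csf1r, the receptor for CSF1 and IL-34 on which macrophage survival depends, has 3 probe sets, all of which passed the filter. The probe set of highest mean gave 1327.6, 1620.7 and 1252.3 in Harlequin mice, against 1386.9, 1327.2 and 1373.2 in controls. Its log2 difference was 0.03 (SE 0.12, 95% interval -0.24 to 0.30, adjusted p = 0.995), an interval of 0.849 to 1.23 as a fold, the narrowest among the 8 tested members. The other 2 probe sets differed by -0.24 and -0.16, opposite in sign to the first, and the mean over the probe sets was -0.12. Without Harlequin replicate 2, the highest array at the first probe set, the difference there was -0.08.

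Tyrobp encodes DAP12, the adaptor that carries an activation motif for receptors such as TREM2 in macrophages, other myeloid cells and natural killer cells. It gave 1202.1, 1238.6 and 899.4 in Harlequin mice, against 932.2, 641.8 and 918.0 in controls. Harlequin replicates 1 and 2 lay above all controls, Harlequin replicate 3 lay below controls 1 and 3, and control replicate 2 was the lowest. The log2 difference was 0.42 (SE 0.18, 95% interval 0.00466 to 0.84), a fold of 1.34, with an unadjusted p of 0.048 and a limma adjusted p of 0.981. By unadjusted p it ranked 588 of the 13219 genes. Without control replicate 2 the difference was 0.25, and with any 1 array left out it ranged from 0.25 to 0.57. Its unadjusted p in limma's fit was 0.171 without control replicate 2, 0.122 without Harlequin replicate 1 and 0.142 without Harlequin replicate 2. The unadjusted limma p was 0.0154 without Harlequin replicate 3, 0.0389 without control replicate 1 and 0.0431 without control replicate 3. Control replicate 2 was also the lowest array for neutrophil markers, whose mean log2 deviation there was -1.07, and for pan-leukocyte genes, at -0.57, and the part of those cells in the Tyrobp signal was not tested.

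The identity markers Adgre1 and Aif1 differed little between the genotypes. Adgre1 encodes F4/80, the classical surface antigen of mouse macrophages, and gave 195.5, 237.1 and 153.4 in Harlequin mice, against 203.9, 205.0 and 188.2 in controls. Harlequin replicate 2 lay above all the controls, replicate 3 below them and replicate 1 among them. Its log2 difference was -0.04 (SE 0.19, 95% interval -0.47 to 0.38, adjusted p = 0.995), and without Harlequin replicate 3 it was 0.11, on the other side of 0. Without Harlequin replicate 2 it was -0.18. Aif1, an actin-binding protein of macrophages and microglia, gave 144.8, 156.5 and 139.3 in Harlequin mice, against 144.8, 137.6 and 139.5 in controls. Its SD within the genotypes was 0.06 on the log2 scale, lower than in all but 4.18% of the genes tested. The log2 difference of Aif1 was 0.06 (SE 0.16, 95% interval -0.31 to 0.42, adjusted p = 0.993), and 0.01 without Harlequin replicate 2.

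**Figure D2:**
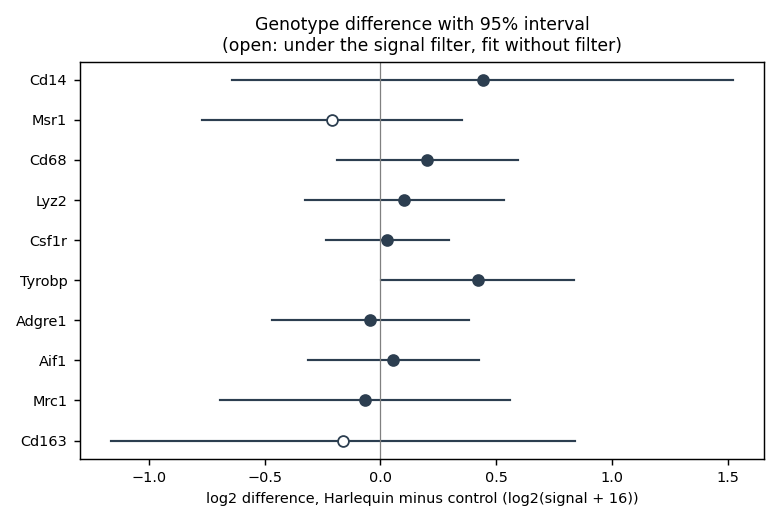
Log2 difference, Harlequin minus control on the log2(signal + 16) scale, of each macrophage marker with its 95% interval from limma (points are the estimates, open points are genes under the signal filter, taken from the fit without it). The interval of Tyrobp, 0.00466 to 0.84, lies just above 0, the other 9 intervals span 0, and that of Cd14 reaches from -0.64 to 1.52.

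Mrc1, the mannose receptor CD206 of resident-type macrophages, also made by lymphatic endothelium, gave 281.8, 394.8 and 520.4 in Harlequin mice, against 347.9, 325.9 and 588.3 in controls. Values varied widely in both genotypes and overlapped, with Harlequin replicate 1 the lowest and control replicate 3 the highest. The log2 difference was -0.07 (SE 0.27, 95% interval -0.69 to 0.56, adjusted p = 0.995). It turned to 0.15 without Harlequin replicate 1, to 0.19 without control replicate 3 and to 0.05 with array weights. Without Harlequin replicate 3 it was -0.27. Of the 5 lymphatic markers 2 were tested and 0 called. Flt4, a receptor of lymphatic growth factors, averaged 128.8 ± 21.1 in Harlequin mice against 137.2 ± 38.6 in controls (log2 difference -0.06), and Pdpn averaged 1486 ± 248 in Harlequin mice against 1488 ± 50.2 in controls (-0.01). Prox1 and Lyve1 lay under the filter, and the part of lymphatic cells in the Mrc1 signal was not tested.

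Cd163, the scavenger receptor for haemoglobin bound to haptoglobin, lay under the filter at its only probe set. It gave 27.5, 53.1 and 73.2 in Harlequin mice, against 30.6, 45.0 and 116.0 in controls. As with Mrc1, Harlequin replicate 1 was the lowest and control replicate 3 the highest array, and Harlequin replicate 3 was the highest of its genotype for both genes. The log2 difference was -0.16 (95% interval -1.16 to 0.84 in the fit without the filter), and without control replicate 3 it was 0.27.

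Set side by side, neither the resident-type nor the activation-type members separated the genotypes. The mean log2 deviation of the 2 resident-type members from their 6-array mean was -0.56, 0.01 and 0.38 in Harlequin mice, against -0.37, -0.22 and 0.75 in controls. That of the 8 activation-type members was 0.28, 0.07 and -0.16 in Harlequin mice, against -0.09, -0.13 and 0.04 in controls. The mean difference between genotypes was -0.11 for the resident-type members, whose SD was 0.47 in Harlequin and 0.61 in controls. It was 0.13 for the activation-type members, whose SD was 0.22 in Harlequin and 0.09 in controls. Cd14 (0.44) and Tyrobp (0.42) had the largest differences among those 8, while Msr1 (-0.21) and Adgre1 (-0.04) were lower. Without Harlequin replicate 1 the activation-type mean difference was 0.02. The scores include Cd163 and Msr1, which lay under the filter. Activation-type minus resident-type gave 0.83, 0.06 and -0.54 in Harlequin mice, against 0.27, 0.08 and -0.71 in controls. Its range was 1.37 within Harlequin and 0.98 within controls, and its mean differed by 0.24 between the genotypes. No p is given for these scores, because the members were chosen with results of these data known.

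**Figure D3:**
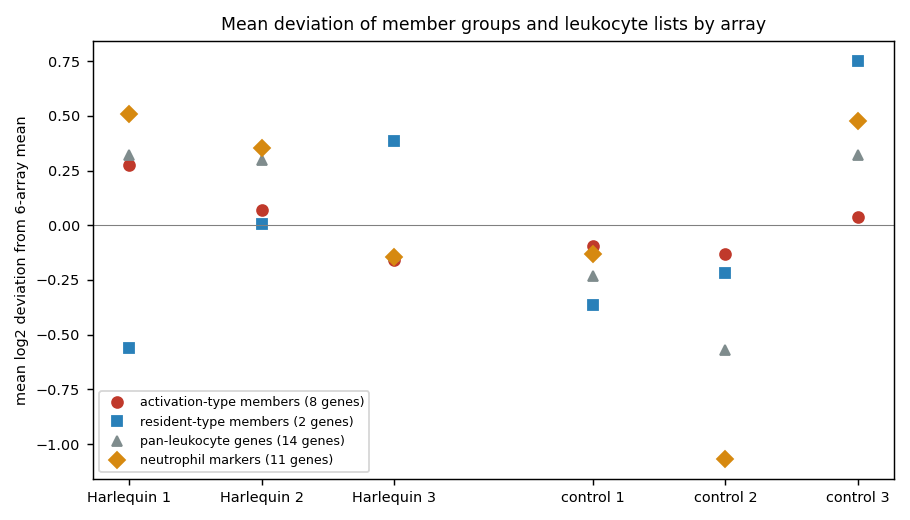
Mean log2 deviation from the 6-array mean, for each array, of the activation-type and resident-type members and of pan-leukocyte and neutrophil lists (1 point per array and group, Harlequin on the left). Resident-type members reach from -0.56 to 0.38 in Harlequin and from -0.37 to 0.75 in controls, and neutrophil markers are lowest, at -1.07, in control replicate 2.

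The array with the highest signal was not the same for all tested members. Harlequin replicate 1 was highest for 3 of the 8, Cd14, Cd68 and Lyz2, and Harlequin replicate 2 for 4, Adgre1, Aif1, Csf1r and Tyrobp. Control replicate 3 was highest for Mrc1. Harlequin replicate 3 was highest for 0 of the 8 and lowest for Adgre1 and Csf1r, and control replicate 2 was lowest for Aif1, Cd68 and Tyrobp. Fibroblast markers, which form another part of the lamina propria, had mean log2 deviations of -0.58, 0.49 and -0.51 in Harlequin mice, against 0.54, 0.28 and -0.22 in controls, so that the genotypes overlapped. All 6 were tested, with 0 called, 0 higher and 6 lower and a median log2 difference of -0.31. Their part in the macrophage values was not tested.

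**Figure D4:**
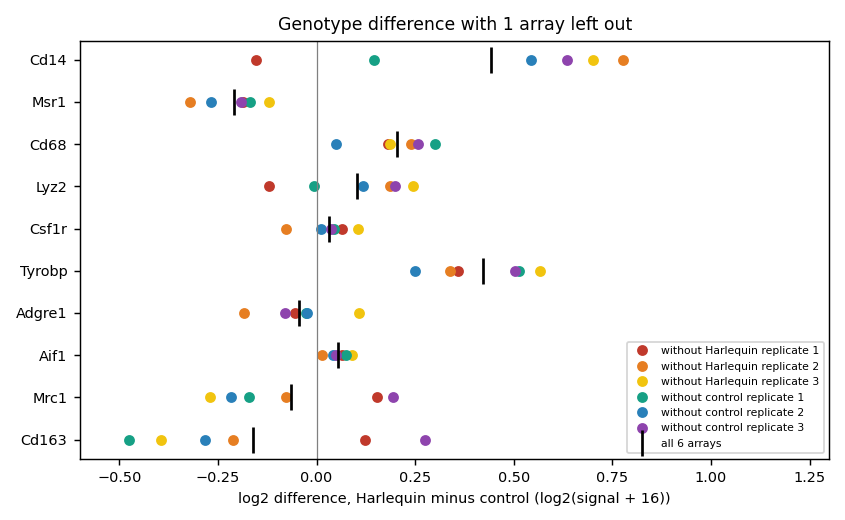
Log2 difference, Harlequin minus control on the log2(signal + 16) scale, of each macrophage marker with all 6 arrays (black bar) and with each array left out in turn (coloured points). The points of Cd14 reach from -0.15 to 0.78 and those of Tyrobp from 0.25 to 0.57.

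Promoter sequence was compared for a member of each kind, Lyz2 for the activation-type and Mrc1 for the resident-type, because their signals ran in different orders over the arrays. PU.1, a transcription factor that directs macrophage development, binds purine-rich sites with a GGAA core, and 2 forms of such a site, AGGAAG and GAGGAA, were searched on both strands. These forms can overlap each other. The lines give the 250 bases before the annotated start in RefSeq (GRCm38.p6), 5′ to 3′ on the gene's strand, with matches in capitals. The Lyz2 window is chr10:117282273-117282522 on the minus strand, and the Mrc1 window is chr2:14229164-14229413 on the plus strand.
Lyz2: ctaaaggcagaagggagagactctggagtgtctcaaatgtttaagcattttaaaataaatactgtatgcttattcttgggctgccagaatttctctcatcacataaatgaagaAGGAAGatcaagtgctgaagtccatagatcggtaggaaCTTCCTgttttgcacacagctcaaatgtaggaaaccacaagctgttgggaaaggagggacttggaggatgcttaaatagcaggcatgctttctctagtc
Mrc1: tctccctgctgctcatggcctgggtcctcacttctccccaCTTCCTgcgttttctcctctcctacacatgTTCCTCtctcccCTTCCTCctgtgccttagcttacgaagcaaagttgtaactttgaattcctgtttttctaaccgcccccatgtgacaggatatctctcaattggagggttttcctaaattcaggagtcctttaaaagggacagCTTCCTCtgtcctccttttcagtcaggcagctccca
The Lyz2 window held 2 stretches of matches and the Mrc1 window 4. Both members thus carry the letters of at least 1 form. The table used holds windows for 5 of the 10 members, of which 4 had a match, Cd163 being the exception, and 39.2% of all 32851 windows of this length had one (29.5% AGGAAG, 23.3% GAGGAA). A match is a description of the letters and not a binding site.

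Genes that act with the members were described from lists in the same fit, where 0.0303% of all genes were called. Many of those named have the smallest p of their list, a choice that favours genes without overlap. Over all genes tested 10.4% had no overlap. It was 1 of 16 for DAP12 partners, 3 of 14 for CSF1R ligands and transcription factors, and 1 of 11 for CD14 partners. Scavenger receptors had 1 of 13, resident macrophage genes 2 of 15 and lysosome genes 2 of 18. Pan-leukocyte genes had 1 of 14, neutrophil markers 0 of 11 and monocyte markers 2 of 6. Among partners of DAP12 and Fc receptor genes, 16 of 22 were tested, 0 were called, 10 were higher and 6 lower, with a median log2 difference of 0.17. Fcer1g, the adaptor most like DAP12 in function, gave 395.5, 500.5 and 393.7 in Harlequin mice, against 317.5, 248.5 and 391.6 in controls, without overlap (log2 difference 0.43, limma adjusted p = 0.981). The leukocyte integrin chain Itgb2 (0.61) and the beta-glucan receptor Clec7a (0.56) overlapped. Trem2, the best known partner of DAP12 in macrophages, lay under the filter, at 30.7 to 49.6 in Harlequin and 36.0 to 45.9 in controls.

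CSF1R ligands and myeloid transcription factors numbered 14 tested of 15, with 0 called, 6 higher and 8 lower and a median of -0.08. The ligand Csf1 gave 190.4, 172.8 and 197.6 in Harlequin mice, against 202.4, 216.0 and 254.5 in controls (-0.24), and all 4 of its probe sets were lower on average. The other ligand, Il34, differed by 0.07 and Spi1, the gene of PU.1, by 0.23. Maf, a transcription factor of resident macrophages and of many other cells, differed by -0.41 at its probe set of highest mean, without overlap. The other 5 differed by -0.21, -0.07, -0.06, -0.03 and -0.81. The last of these had signals of 3.3 to 47.4 over the arrays, all below the filter of 61.1.

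Partners of CD14 and endotoxin response genes had 11 of 27 tested, with 0 called, 4 higher and 7 lower and a median of -0.05. The endotoxin receptor Tlr4 averaged 263.3 ± 57.8 in Harlequin mice against 259.8 ± 23.4 in controls (log2 difference -0.001), and its co-receptor Ly96 averaged 190.2 ± 77.2 in Harlequin mice against 194.2 ± 33.7 in controls (-0.09). Like Cd14, both were highest in Harlequin replicate 1, at 300.5 and 262.2. The inflammatory products Tnf, Il6, Nos2, Ccl2, Ccl3, Cxcl2, Cxcl10, Ptgs2 and Il1rn and the costimulatory Cd86 and Cd40 lay under the filter. Irak1, a kinase downstream of these receptors, had the smallest p of the list and averaged 874.9 ± 171 in Harlequin mice against 1188 ± 101 in controls, without overlap (SD, n = 3 each; -0.45, adjusted p = 0.981). The 3 remaining probe sets of Irak1 gave -0.44, -0.18 and 0.12. That of highest mean and that at -0.44 are of the type (_x_at) that can bind related transcripts. The value of 0.12 came from the only Irak1 probe set without such a suffix (_x_at or _a_at). The inflammatory cytokine Il1b (0.31) and the chemokine Cxcl1 (-0.16) overlapped.

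Other scavenger receptors had 13 of 16 tested, with 0 called, 4 higher and 9 lower and a median of -0.12. Colec12, a scavenger receptor of endothelium and stroma, gave 142.9, 202.0 and 184.1 in Harlequin mice, against 233.1, 278.6 and 285.7 in controls, without overlap (-0.56, adjusted p = 0.981). Cd5l, secreted by macrophages, differed by 0.61 and overlapped.

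Resident tissue macrophage genes beyond Mrc1 and Cd163 had 15 of 18 tested, with 0 called, 8 higher and 7 lower and a median of 0.08. Complement C1qc gave 608.2, 573.9 and 554.3 in Harlequin mice, against 412.6, 414.5 and 508.7 in controls, without overlap (0.37, limma adjusted p = 0.981). Its partner chain C1qa gave 552.8, 595.2 and 534.4 in Harlequin mice, against 543.5, 548.3 and 627.5 in controls (-0.03). C1qb had 0.38 at its probe set of highest mean, also without overlap. Its other probe sets, of the type (_x_at) that can bind related transcripts, overlapped and had -0.03 and 0.14. The 3 chains of C1q therefore did not all share a difference, C1qa being the exception at the probe sets of highest mean. Siglec1, Vsig4 and Lyve1, of resident macrophages, lay under the filter.

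Phagocyte lysosome genes had 18 of 20 tested, with 0 called, 12 higher and 6 lower and a median of 0.05. The asparagine endopeptidase Lgmn gave 3113.3, 3253.3 and 3268.2 in Harlequin mice, against 2915.9, 2402.9 and 2618.5 in controls, without overlap (0.28, adjusted p = 0.981). Gpnmb, a glycoprotein of lipid-laden macrophages, averaged 165.2 ± 75.3 in Harlequin mice against 77.9 ± 23.7 in controls (SD, n = 3 each; log2 difference 0.88, adjusted p = 0.981). Harlequin replicates 1 and 2, at 212.4 and 204.8, stood above all controls for Gpnmb, as for Tyrobp, and Harlequin replicate 3, at 78.4, did not.

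Markers of other white blood cells bear on Tyrobp, Lyz2 and Cd14, which those cells can also express. Pan-leukocyte genes had 14 of 15 tested, with 0 called, 12 higher and 2 lower and a median of 0.35. Their signals summed to between 8811 and 11750 in Harlequin mice and between 7264 and 11560 in controls, and Cyba, a subunit of the phagocyte oxidase, had no overlap (0.48). Neutrophil markers had 11 of 14 tested, with 0 called, 10 higher and 1 lower, and a summed signal of 40370 to 60240 in Harlequin and 22150 to 53770 in controls. Their mean log2 deviation was 0.51, 0.35 and -0.14 in Harlequin mice, against -0.13, -1.07 and 0.48 in controls. Monocyte markers had 6 of 8 tested, with 2 higher, 4 lower and a median of -0.12. Of these 1 was called, Chil3, which rose (log2 difference 2.20, limma adjusted p = 0.0315). Which cells of the bulk tissue gave the Chil3 signal was not tested. No gene was called as higher without the intensity trend or with the replicate block. The same held without Harlequin replicate 1 or 3 and without control replicate 1 or 3, each left out alone. The monocyte marker signals summed to between 4016 and 4461 in Harlequin mice and between 2335 and 4041 in controls. These sums include Chil3, at 1963 ± 261 in Harlequin mice against 426.8 ± 145 in controls (SD, n = 3 each). Spn, the surface sialoprotein CD43, was lower without overlap at its probe set of highest mean and did not pass. It averaged 62.9 ± 6.75 there in Harlequin mice against 95.8 ± 13.7 in controls (-0.50). Its other probe set gave 62.9, 77.7 and 81.4 in Harlequin mice, against 66.5, 68.6 and 80.7 in controls, and overlapped (0.03).

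Dendritic cell markers had 7 of 11 tested (0 called, median -0.09), with Flt3, Xcr1 and Ccr7 under the filter and summed signals of 4800 to 6631 in Harlequin and 4960 to 5626 in controls. Microglia markers had 5 of 6 tested (0 called, 5 lower, median -0.10), with summed signals of 1344 to 2053 in Harlequin and 1478 to 2004 in controls. The microglial receptor P2ry12 averaged 81.1 ± 5.95 in Harlequin mice against 88.5 ± 18.0 in controls (SD, n = 3 each). Erythrocyte markers, whose haemoglobin is the ligand of the Cd163 product, had 5 of 10 tested (0 called, 5 higher, median 1.43), and their mean log2 deviations did not overlap, at 0.48, 0.88 and 0.40 in Harlequin mice, against -0.60, -1.25 and 0.09 in controls. B and plasma cell markers had 5 of 8 tested (0 called, 5 higher, median 0.32), with deviations of 0.21, 0.20 and 0.27 in Harlequin mice, against -0.04, -0.32 and -0.32 in controls. Control replicate 2 was the lowest array for the erythrocyte markers, as for Tyrobp. Of the T cell markers 1 of 8 was tested, Cd8a, and the others on the array lay under the filter. The part of these cells in the macrophage values was not tested.

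The genes whose pattern over the 6 arrays was most like the mean of the 8 tested members were Slc11a1, a metal transporter of phagosomes (Pearson r = 0.990, Spearman rho = 0.943), Slc40a1, the iron exporter ferroportin (0.986 and 0.943), Tmem40 (0.985 and 0.943), 4930523C07Rik (0.983 and 0.943) and Isg20, an interferon-induced exonuclease (0.983 and 1). Slc11a1 gave 211.9, 163.1 and 134.0 in Harlequin mice, against 111.4, 118.2 and 167.0 in controls. Slc40a1 gave 627.1, 363.8 and 310.5 in Harlequin mice, against 235.7, 249.3 and 436.7 in controls. Both were highest in Harlequin replicate 1 and overlapped between the genotypes. After centring each genotype the most alike were Tmem185a, Arpc2, Idh3g, Ppp1r12b and Gak, with r of 0.9965 to 0.9995. These are the highest of 13211 genes compared over the same 6 arrays, and they are given as a description. The mean of the members gave each gene equal weight on the log2 scale. Cd14, at 2392.0 in Harlequin replicate 1, had the largest SD within the genotypes among the 8 (0.82). How far Cd14 on that array sets the likeness was not tested.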

How the data were processed

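Linear probe set intensities of 6 arrays were used as the authors deposited them. Their trimmed mean, without the lowest and highest 2%, was 500 on every array. Per the labels' protocols, 3 µg of RNA per mouse was turned into biotinylated cRNA, and the arrays of a genotype are biological replicates; the summarising software is not given in the sources used here. With 1 factor per array, intensity-dependent differences between arrays remain.

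Control probe sets (64) were dropped. Of the others, 34945 name 1 gene, 932 several and 9160 none in the platform annotation; through RefSeq, 18032 of 18194 gene identifiers were found. Each gene was represented by its probe set of highest mean log2(value + 16), and genes above the 40th percentile were tested with limma 3.58.1 (R 4.3.3), 3 arrays against 3, with an intensity trend and two-sided Benjamini-Hochberg adjusted p-values over 13219 genes. The fit was tested on simulated data. Members, lists and tests were chosen with earlier results of these data known. The text names all members, Aifm1, and from each list up to 3 genes of smallest p; Trem2, Tlr4, Ly96, Il34, Spi1, C1qa, Lyz1, Prox1, P2ry12 and Cyp2g1 were named as defining markers. Some genes that the rule permits are not described. Summaries used Python 3.11.15. Alternative settings changed the pseudocount (1 or 64) and the filter (none, or the 60th percentile), and used quantile and median normalization, no trend, robust moderation, array weights, other probe set rules, a replicate block, and each array left out.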

Additional observations from a re-analysis of the deposited data

How the results depend on the processing

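Under 12 alternatives and with each array left out, 0 members and, where fitted, 0 member probe sets passed (smallest member adjusted p 0.892, for Tyrobp). Over all genes, 4 passed, against 0 without an intensity trend (643 at an unadjusted p under 0.05), 0 with the replicate block (541), and 0 to 3 with 1 array left out. Directions turned for Mrc1 with array weights (0.05) and for Csf1r with the mean over its probe sets (-0.12). With 1 array left out, the log2 difference ranged from -0.27 to 0.19 for Mrc1, -0.18 to 0.11 for Adgre1, -0.078 (without Harlequin replicate 2) to 0.11 for Csf1r, -0.12 to 0.24 for Lyz2 and -0.15 to 0.78 for Cd14, each turning sign, and the causes were not tested. Cd68 and Tyrobp kept their direction under all 12 alternatives, and Aif1 under the 10 in which it was tested, since the filter at the 60th percentile and the fit without suffixed probe sets left it out; all 3 kept it with each array left out. The resident-type mean ranged from -0.33 to 0.23 and the activation-type mean from 0.02 to 0.24 with 1 array left out. Deviations of same-numbered arrays correlated at -0.24, -0.03 and 0.06 for replicates 1, 2 and 3 over all genes tested. With 3 arrays a genotype, these values cannot tell whether the numbers pair the mice. With the replicate block the SE of Mrc1 was 0.16, against 0.27 in the main fit, and that of Cd14 was 0.53, against 0.47. With 3 arrays a group, the printed intervals are unadjusted ranges for each gene and not limits of detection. That of Tyrobp lay above 0, at 0.00466 to 0.84, while its limma adjusted p in the main fit was 0.981. A change outside an interval could therefore also have gone uncalled.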
